A study of Homo sapiens with 6 samples.

Results

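The cytosolic ribosomal protein genes were followed in LNCaP-AI cells, an androgen-independent derivative of the LNCaP prostate cancer line labelled as castration-resistant prostate cancer. Members were the rows whose symbol is RPL or RPS followed by a number, with or without a closing A or X, together with RPLP0, RPLP1, RPLP2, RPSA and FAU. Pseudogenes and RPS27L were left out. The rule found 78 of the 20308 genes in the tables, 46 of the large subunit and 32 of the small subunit. It does not take in RACK1, whose protein product is also part of the ribosome and which is given further below.

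The shMETTL1 group held 3 libraries of cells labelled METTL1 knockdown, and the shscramble group held 3 libraries of control cells with a scrambled hairpin. Both groups carried the label of androgen deprivation therapy. The labels leave out whether the cultures behind the libraries were separate, so p-values measure the spread between these libraries, which may be technical. Every gene has an FPKM (fragments scaled to transcript length in kilobases and to library depth) and an estimated count in each library, and both are used here because most ribosomal protein transcripts are short and FPKM divides by an estimated length.

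METTL1, the enzyme that places N7-methylguanosine on RNA and the target of the hairpin, stood at 13.9, 18.5 and 21.0 FPKM in shscramble and at 8.35, 10.5 and 8.18 FPKM in shMETTL1. The groups did not overlap, and the mean of shMETTL1 was 50.7% of that of shscramble. The exact permutation test over libraries gave p = 0.1 (two-sided), the smallest value that 3 against 3 allows, and limma gave an adjusted p of 0.127. By estimated counts METTL1 fell, with a log2 fold change of -1.36 (adjusted p = 0.028 by edgeR and 0.0155 by DESeq2). Over the alternatives by counts the adjusted p ran from 0.0041 to 0.17, and the call was lost without shscramble replicate 3 or without shMETTL1 replicate 1 or 3. Estimated counts summed to between 3389897 and 3604835 per library. All 10 luminal prostate markers looked at were above 0, with KLK3 at 1171 to 1224 FPKM in shscramble and 743 to 878 FPKM in shMETTL1. By edgeR 3 of the 10 fell (KLK3, KLK2 and TMPRSS2) and 0 rose, where 4.05% of all genes fell and 2.89% rose. KRT5, DCN, LUM, PTPRC, CD3E and CDH5 were listed at 0 in all 6 libraries. The other basal, fibroblast, leukocyte and endothelial markers reached at most 16.8 FPKM. In bulk samples, fewer cells of a type and less RNA per cell cannot be told apart.

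A ribosome is built from a small subunit, which reads the mRNA, and a large subunit, which forms the peptide bonds, and each holds 1 copy of nearly all of its proteins. Cells therefore make ribosomal proteins in step with one another and degrade those that find no partner. Their mRNAs begin with an uninterrupted run of pyrimidines behind a cytosine at the cap, the 5′ terminal oligopyrimidine (TOP) motif, through which mTORC1 and the RNA-binding protein LARP1 control their translation. Free RPL5 and RPL11, bound to 5S rRNA, also hold back the ubiquitin ligase MDM2.

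The motif is shown for members that the comparison between groups turns on. The windows are 30 bases long, with 10 bases before the annotated RefSeq transcript start and 20 from it (GRCh38.p14), and capitals mark the pyrimidine run that opens the transcript. Those of members with negative fold changes lie at chr1:23691796-23691825 (RPL11), chr17:74203668-74203697 (RPL38), chr3:40457329-40457358 (RPL14) and chr10:78033853-78033882 (RPS24), all on the plus strand, and at chr17:8383174-8383203 on the minus strand (RPL26). Those of members with positive fold changes lie at chr20:62387093-62387122 (RPS21), chr19:41860245-41860274 (RPS19), chrX:154398367-154398396 (RPL10), chr15:69452808-69452837 (RPLP1) and chr19:8321486-8321515 (RPS28), all on the plus strand.
RPL11: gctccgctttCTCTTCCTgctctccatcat
RPL38: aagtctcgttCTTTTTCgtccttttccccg
RPL14: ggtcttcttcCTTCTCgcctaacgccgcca
RPL26: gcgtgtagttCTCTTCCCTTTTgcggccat
RPS24: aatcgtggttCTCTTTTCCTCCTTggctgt
RPS21: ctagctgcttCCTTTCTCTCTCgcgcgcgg
RPS19: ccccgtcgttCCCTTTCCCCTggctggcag
RPL10: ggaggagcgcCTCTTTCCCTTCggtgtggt
RPLP1: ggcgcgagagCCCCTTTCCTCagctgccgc
RPS28: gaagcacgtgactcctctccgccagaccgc

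RPS28 has no capitals because its annotated start is not a cytosine, although a matching run lies within 5 bases of it. A cytosine followed by at least 4 pyrimidines, read on the transcript's strand only, opened an annotated transcript of 47 of the 63 members found in the table of starts, 28 of 38 of the large subunit and 19 of 25 of the small subunit. Over all 27305 genes of that table the share was 5.14%. The run opens both members with negative and members with positive fold changes among the sequences above. The median log2 fold change by FPKM was 0.07 for the 47 members with the run and 0.05 for the 16 without it. A match describes these letters and is not evidence of regulation.

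Ribosomal protein mRNAs were among the most abundant of these cells and differed widely in level from one another, although nearly all of their proteins are needed in equal numbers. They took 4.12% to 4.56% of the estimated counts and 10.1% to 12.4% of the summed FPKM of a library. The median member had a mean of 738 FPKM over the 6 libraries, and 28 members were above 1000 FPKM. The mean level of the highest member was 21.5 times that of FAU, one of the lowest, and 55 of the 78 lay within 2-fold of the median.

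RPS24, a small subunit protein mutated in Diamond-Blackfan anaemia, was the most abundant at a mean of 4742 FPKM, and in the large subunit RPL26, which lies at the exit of the peptide tunnel, led with 3399 FPKM. They were followed in the small subunit by RPS2 (2522 FPKM), RPS27 (2337 FPKM) and RPS15A (2119 FPKM), and in the large subunit by RPL17 (2439 FPKM), RPL23 (2161 FPKM) and RPL7A (2136 FPKM). Their order is uncertain, because the libraries of RPS2 (2009 to 2846 FPKM), RPS27 (1737 to 3036 FPKM) and RPL17 (2037 to 3053 FPKM) overlapped.

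The lowest large subunit members were RPL31 (246 FPKM), RPLP2 (257 FPKM), RPLP1 (279 FPKM) and RPL9 (300 FPKM). RPLP1 and RPLP2 form, with RPLP0, the stalk that recruits elongation factors, and RPLP0 stood far above both at 1929 FPKM. In the small subunit FAU (221 FPKM) and RPS27A (232 FPKM), both made as fusions with ubiquitin or a ubiquitin-like protein, and RPS19 (309 FPKM), another gene of Diamond-Blackfan anaemia, were low. Many members have processed pseudogenes, and how reads were divided among such copies is not given in the sources used here.

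**Figure D1:**
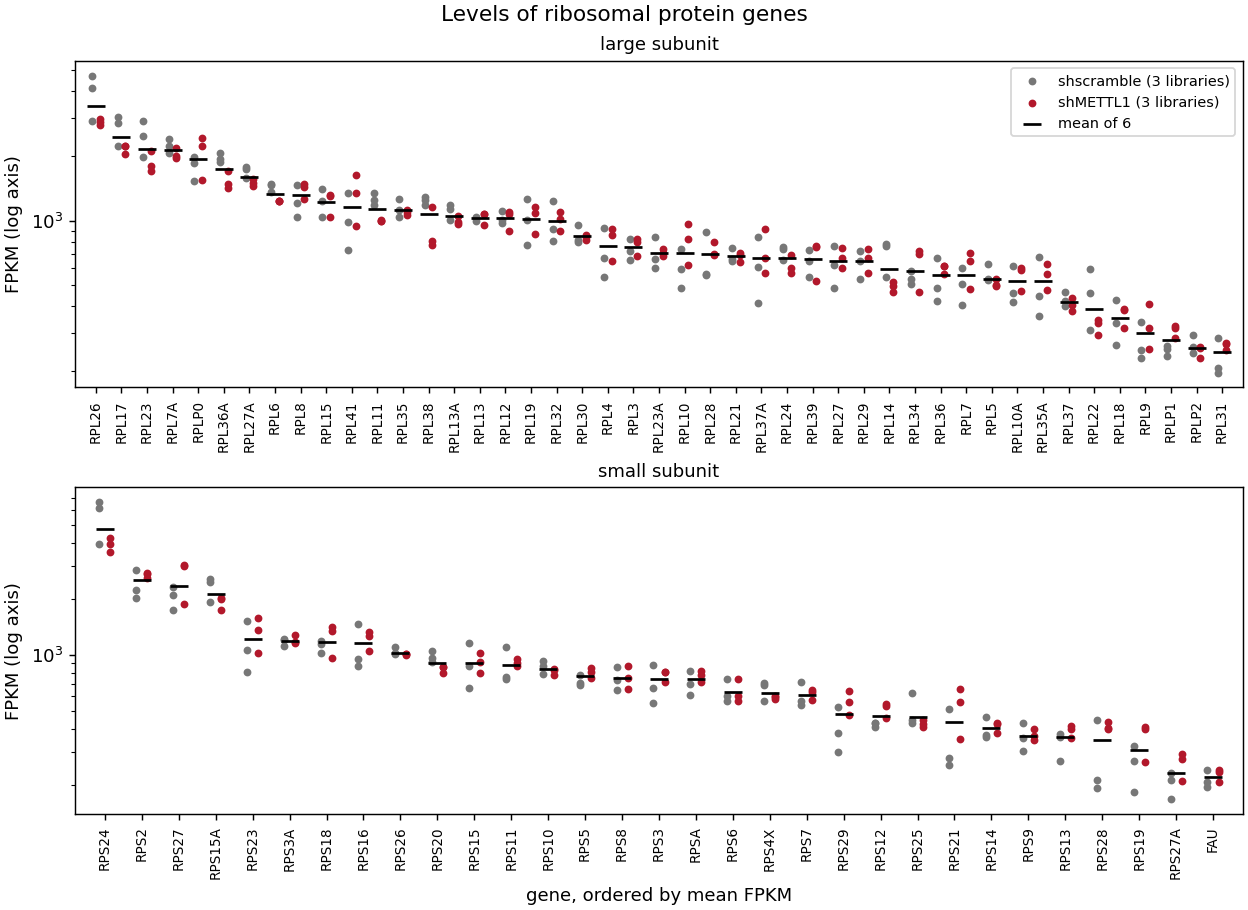
FPKM (log axis) of ribosomal protein genes in the 3 shscramble libraries (grey) and the 3 shMETTL1 libraries (red), with the mean of the 6 libraries as a black bar, ordered by that mean. Levels fall from 4742 FPKM for RPS24 to 221 FPKM for FAU among the genes shown.

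The 2 subunits had similar levels per gene. The median large subunit member lay between 656 and 864 FPKM in shscramble and between 698 and 825 FPKM in shMETTL1, and the median small subunit member between 637 and 786 FPKM and between 683 and 810 FPKM. Summed over members, the large subunit stood at 1.551, 1.504 and 1.536 times the small subunit by FPKM in the shscramble libraries, and at 1.39, 1.44 and 1.52 times in shMETTL1. The highest shMETTL1 library thus lay above the lowest shscramble library by FPKM. By estimated counts the ratio was 1.74, 1.70 and 1.73 in shscramble and 1.64, 1.69 and 1.69 in shMETTL1, and the groups did not overlap but came close, with 1.70 in shscramble replicate 2. No test was run on these sums.

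The comparison of shMETTL1 with shscramble asked whether the knockdown was accompanied by a change in the mRNAs of the ribosome. The medians of both subunits lay near that of all genes, and no member passed the test on FPKM. The median log2 fold change by FPKM was 0.04 over the 46 large subunit members and 0.08 over the 32 small subunit members, beside 0.02 over all 12156 genes tested. By estimated counts it was -0.02 and 0.05. Leaving out each library in turn moved these medians between -0.06 and 0.13 (large, FPKM) and between 0.02 and 0.19 (small, FPKM), and the highest of each came without shscramble replicate 2. For 75 of 78 members the 95% interval of the limma fit lay within a 2-fold change in either direction. The exceptions included RPS21 and RPS28. Over all genes tested the interval did so for 7849 of 12156. The median SE was 0.16 over members and 0.24 over all genes tested.

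By limma on log2(FPKM + 0.5), with Benjamini-Hochberg adjustment over all genes tested, 0 of 78 members were higher and 0 were lower, where 0.0494% of all genes were higher and 0.074% were lower. The smallest adjusted p of a member was 0.238. At an unadjusted p under 0.05, 3 members were higher and 8 lower, 7 of these 8 in the large subunit, beside 7.37% and 6.8% of all genes. The groups did not overlap for 2 members that were higher (RPLP1 and RPS12, the latter named after its values were seen) and 8 that were lower, where 10.5% and 9.33% of all genes did so. The members' count was near that background in the lower direction and under it in the higher one.

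By the quasi-likelihood test of edgeR on the estimated counts, 3 of the 77 members tested fell and 0 rose, where 4.05% of all genes fell and 2.89% rose. Before adjustment 11 were lower and 7 were higher at p under 0.05, beside 12.1% and 10.9% of all genes. DESeq2 called 6 lower and 0 higher, where it called 4.22% and 2.8% of all genes, adding RPL23, RPL26 and RPS24 to the 3 of edgeR. By edgeR, with 3 and 0, the members again lay near or under the background. The 6 lower by DESeq2 were a larger share than its 4.22% of all genes. The 3 that fell by edgeR, RPL11, RPL38 and RPL14, belong to the large subunit, and a difference between the subunits was not tested.

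RPL11, which carries 5S rRNA into the large subunit together with RPL5, stood at 1342, 1186 and 1246 FPKM in shscramble and at 997, 998 and 1011 FPKM in shMETTL1. Every shMETTL1 library lay below every shscramble library, by FPKM and by count. The log2 fold change was -0.33 ± 0.11 (SE, n = 3 per group; adjusted p = 0.244 by limma) by FPKM and -0.38 by estimated counts (adjusted p = 0.0463 by edgeR).

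RPL38, a small protein known from mice for its part in the translation of homeobox mRNAs, stood at 1296, 1180 and 1251 FPKM in shscramble and at 804, 768 and 1154 FPKM in shMETTL1. The groups did not overlap, but shMETTL1 replicate 3 lay close to the controls. The log2 fold change was -0.48 ± 0.16 (SE, n = 3 per group; adjusted p = 0.253 by limma) by FPKM and -0.52 by estimated counts (adjusted p = 0.0248 by edgeR).

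RPL14 stood at 783, 546 and 764 FPKM in shscramble and at 466, 520 and 496 FPKM in shMETTL1. The groups did not overlap, with shscramble replicate 2 just above the shMETTL1 libraries. The log2 fold change was -0.48 ± 0.16 (SE, n = 3 per group; adjusted p = 0.238 by limma) by FPKM and -0.57 by estimated counts (adjusted p = 0.0228 by edgeR). None of these 3 calls rested on all libraries alike: over the alternatives tried, the adjusted p by counts ran from 0.00053 to 0.193 for RPL11, from 0.00022 to 0.153 for RPL38 and from 8.9e-07 to 0.134 for RPL14. All 3 calls were lost without shscramble replicate 1 or 3 or without shMETTL1 replicate 1 or 2, and those of RPL11 and RPL14 also without shMETTL1 replicate 3.

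**Figure D2:**
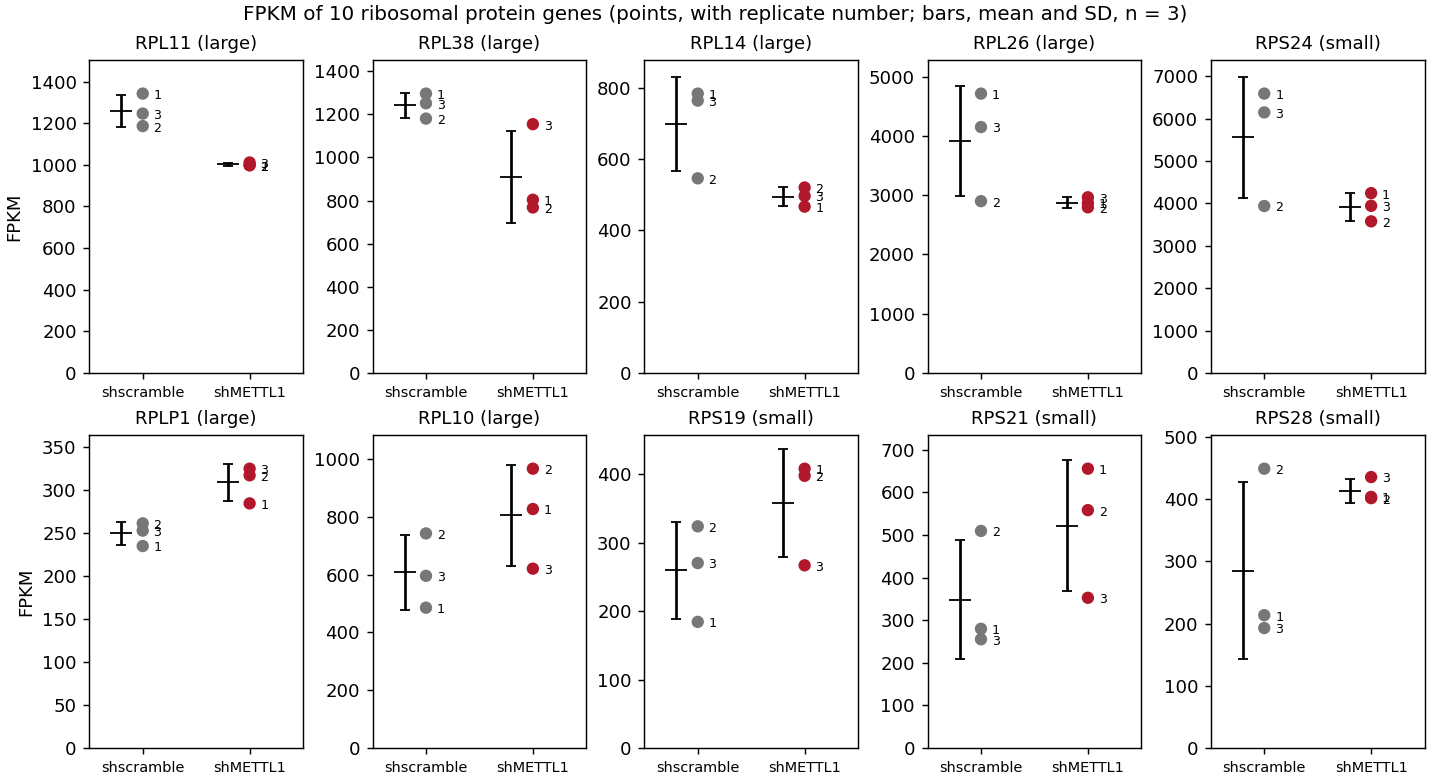
FPKM (linear axis from 0) of 10 ribosomal protein genes in the shscramble (grey) and shMETTL1 (red) libraries, each point with its replicate number, and the mean and SD of each group (n = 3) as a bar. RPL11, RPL38, RPL14 and RPLP1 show no overlap between groups, while shscramble replicate 2 lies among the shMETTL1 libraries in RPL26 and RPS24 and above them in RPS28.

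In several other members with negative fold changes shscramble replicate 2 lay near the shMETTL1 libraries. RPS24 stood at 6594, 3940 and 6150 FPKM in shscramble and at 4244, 3578 and 3945 FPKM in shMETTL1, a log2 fold change of -0.47 ± 0.19 (SE, n = 3 per group; adjusted p = 0.313 by limma). RPL26 stood at 4716, 2900 and 4151 FPKM and at 2869, 2795 and 2965 FPKM, a log2 fold change of -0.42 ± 0.17 (SE, n = 3 per group; adjusted p = 0.323 by limma). In both genes 2 control libraries were high and the third was as low as the shMETTL1 libraries.

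RPL22, an RNA-binding protein whose loss mice survive with the help of a paralogue, showed the same order at 596, 309 and 460 FPKM in shscramble and 335, 294 and 345 FPKM in shMETTL1. RPL23, which also binds MDM2, stood at 2910, 1976 and 2474 FPKM and at 2109, 1799 and 1700.6 FPKM. RPL17, whose protein lines the peptide tunnel, stood at 3053, 2238 and 2856 FPKM and at 2227, 2224 and 2037 FPKM. The groups overlapped for RPL22 and RPL23, and those of RPL17 came within 2238 and 2227 FPKM of each other. RPL36A, named after its values were seen, had the same order of controls, but shscramble replicate 2 lay further above the shMETTL1 libraries. It stood at 2072.5, 1868 and 1938 FPKM in shscramble and 1487, 1413 and 1711 FPKM in shMETTL1. Its groups did not overlap by FPKM or by count, and its log2 fold change was -0.35 by FPKM (adjusted p = 0.243 by limma) and -0.38 by counts (adjusted p = 0.0773 by edgeR).

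Of the other large subunit members named for their roles, RPL5, the partner of RPL11, had a log2 fold change of -0.13 by FPKM, with overlapping groups. RPL13A, which also serves to silence inflammatory mRNAs, was at -0.14, and RPL3, which lies near the peptidyl transferase centre, at 0.06. RPL7A, among the 4 most abundant of its subunit, was at -0.13 and RPL9 at 0.26. The adjusted p by limma was 0.652 for RPL5, 0.599 for RPL13A and 0.861 for RPL3.

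In the other direction, RPS28, whose protein lies at the exit of the mRNA channel, had the highest fold change by FPKM. It stood at 214, 449 and 193 FPKM in shscramble and at 404, 402 and 436 FPKM in shMETTL1. Shscramble replicate 2 was the highest of all 6 libraries, so the groups overlapped, and the log2 fold change was 0.64 ± 0.28 (SE, n = 3 per group; adjusted p = 0.346 by limma).

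RPS21 stood at 280, 510 and 255 FPKM in shscramble and at 656, 558 and 353 FPKM in shMETTL1, a log2 fold change of 0.61 ± 0.29 (SE, n = 3 per group; adjusted p = 0.383 by limma). RPS29, a zinc-binding protein of the small subunit, had a log2 fold change of 0.50 and RPS19 one of 0.47. RPS19 stood at 184, 324 and 270 FPKM in shscramble and at 408, 398 and 267 FPKM in shMETTL1. In RPS21 and RPS19, shMETTL1 replicate 3 lay below shscramble replicate 2.

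RPL10, which joins late and makes the large subunit ready for translation, led the large subunit in this direction with 485, 742 and 596 FPKM in shscramble and 827, 966 and 620 FPKM in shMETTL1. Its log2 fold change was 0.40 ± 0.20 (SE, n = 3 per group; adjusted p = 0.395 by limma). RPL41, the smallest ribosomal protein, was at 0.37 and RPL7 at 0.28, with groups that overlapped.

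The stalk proteins did not move as 1 unit. RPLP1 was at 235, 261 and 253 FPKM in shscramble and at 284, 317 and 325 FPKM in shMETTL1, without overlap, a log2 fold change of 0.31 ± 0.12 (SE, n = 3 per group; adjusted p = 0.319 by limma). RPLP2, its partner in the stalk, had a log2 fold change of -0.09 and RPLP0, the base of the stalk, one of 0.19, both with overlapping groups by FPKM. None of the 3 passed a test, and a difference between them was not tested.

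Several well known small subunit members changed little by either column. RPS6, the substrate of the S6 kinases, was at 636 ± 90.6 FPKM in shscramble and 636 ± 95.5 FPKM in shMETTL1 (SD, n = 3 each). RPSA, also known as the laminin receptor precursor, was at 707 ± 105 and 769 ± 52.3 FPKM, and RPS3, at the entry of the mRNA channel, at 698 ± 170 and 779 ± 52.3 FPKM. The 95% interval of the log2 fold change was -0.35 to 0.35 for RPS6, -0.18 to 0.44 for RPSA and -0.21 to 0.57 for RPS3, so that larger changes than these lie outside the intervals.

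RPS25, on which some viral mRNAs depend for initiation, had a log2 fold change of -0.22, RPS27A one of 0.34, FAU one of 0.08, RPS2 one of 0.20, RPS27 one of 0.34 and RPS15A one of -0.27. All 6 had overlapping groups.

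**Figure D3:**
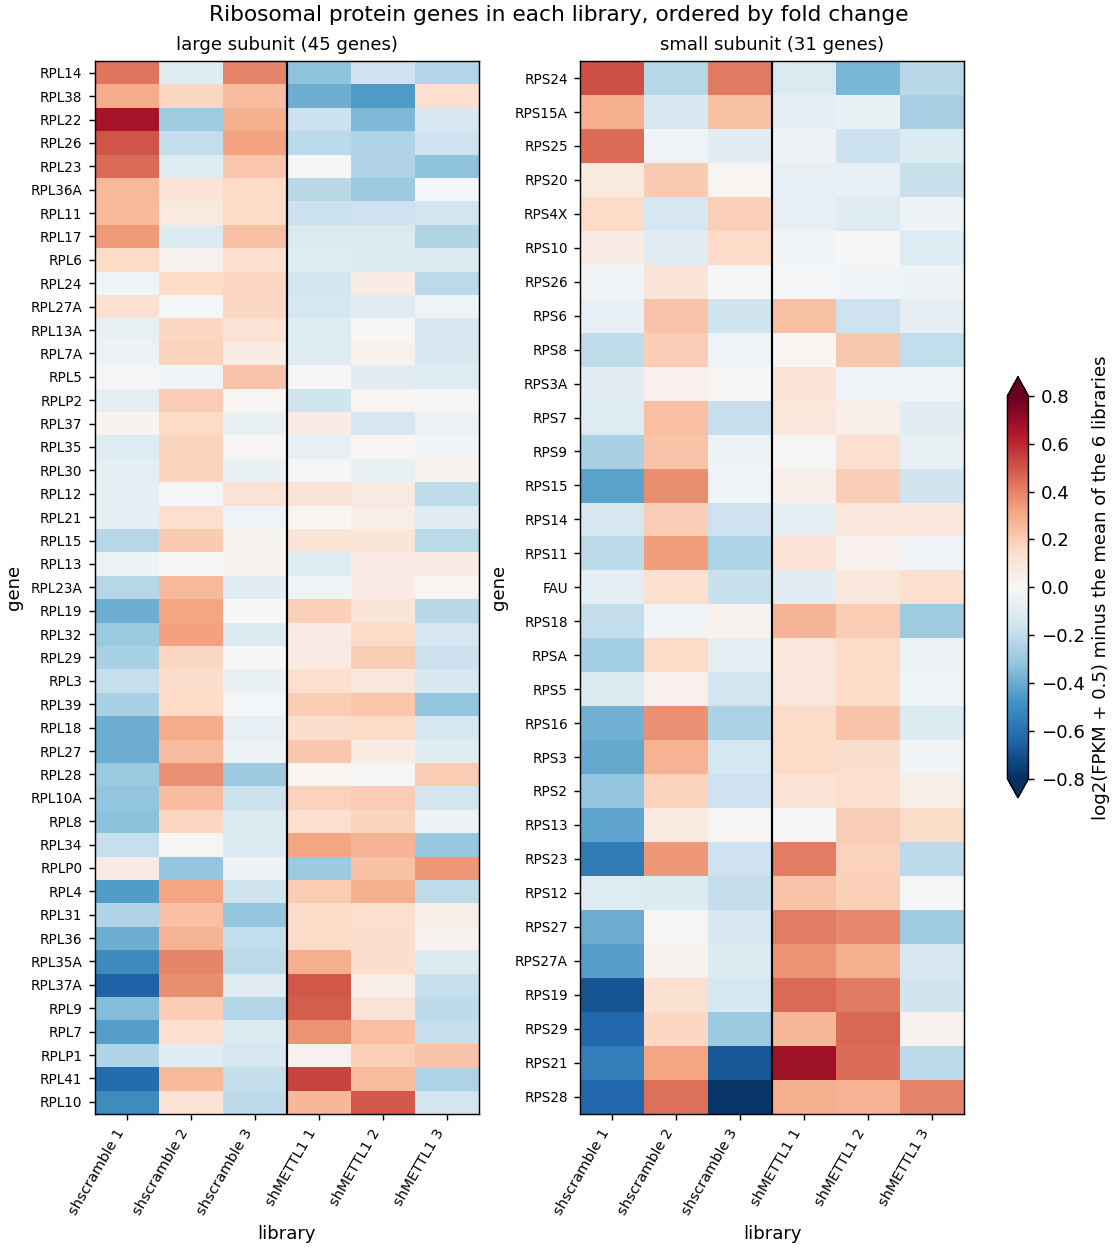
Ribosomal protein genes (rows, by subunit, ordered by log2 fold change) in each library (columns), coloured by log2(FPKM + 0.5) minus its mean over the 6 libraries, red above and blue below. Genes at the top are red in shscramble replicates 1 and 3 and genes at the bottom blue there, while the colours of shscramble replicate 2 are nearer to those of shMETTL1 replicates 1 and 2.

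The FPKM and count columns ordered the members almost alike, with a Spearman correlation of 0.96 across the 77 genes tested by both, which are not independent replicates. The sign was the same for 67 of them. FPKM gave higher log2 fold changes than counts by a median of 0.06, and 15 genes differed by more than 0.1 between the columns.

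The largest difference was in RPS28, at 0.64 by FPKM and 0.36 by counts. RPL31, at the tunnel exit, was at 0.21 by FPKM and -0.05 by counts, and RPS29 at 0.50 and 0.26. RPL4, which reaches into the tunnel, was at 0.19 and 0.02, and RPL22 at -0.44 and -0.28. Both columns were made from the same libraries, and which step sets them apart was not tested. The difference had a Spearman correlation of 0.04 with transcript length across the 77 genes, and the members' median annotated transcripts ran from 359 to 1526 bases.

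**Figure D4:**
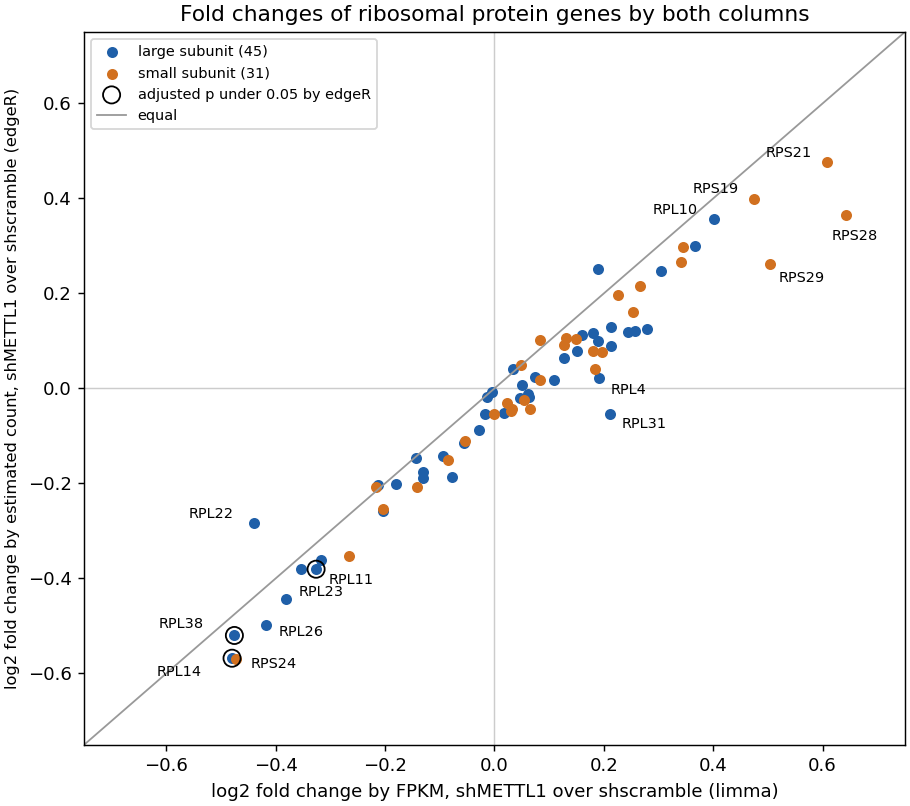
Log2 fold change of members by FPKM (horizontal, limma) against that by estimated counts (vertical, edgeR), large subunit in blue and small subunit in orange, with the line of equal values. RPL11, RPL38 and RPL14, ringed, passed the test on counts, and RPS28, RPS29, RPL31 and RPL4 lie below the line.

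Members differed as much within the shscramble group as between the groups. Over the 78 members the median absolute difference on the log2(FPKM + 0.5) scale was 0.43 between shscramble replicates 1 and 2 and 0.14 between replicates 1 and 3. Shscramble replicate 2 differed from shMETTL1 replicates 1, 2 and 3 by 0.13, 0.14 and 0.24. It was the highest of its group in 55 members and the lowest in 16, against 43.7% and 28.1% of all genes tested. Over the genes outside the list, the distance between shscramble replicates 1 and 2 was 0.37. Those from replicate 2 to the shMETTL1 libraries were 0.29 to 0.31. Over the 165 of these genes with a mean FPKM at or above that of FAU, the same distances were 0.35 and 0.18 to 0.22. In other genes too, shscramble replicate 2 was thus nearer to shMETTL1 than to shscramble replicate 1.

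The first principal component of the 77 members tested by both tools held 74.5% of their variance and placed shscramble replicate 1 at -0.68 and replicate 3 at -0.35, shMETTL1 replicate 3 at -0.07, and shscramble replicate 2 and shMETTL1 replicates 1 and 2 between 0.35 and 0.39. Genes outside the list were ordered in part alike: over the 165 of them with a mean FPKM at or above that of FAU, the first component held 80.5% of the variance, with shscramble replicate 1 at -0.84, replicate 3 at -0.15 and replicate 2 at 0.27, and the shMETTL1 libraries between 0.10 and 0.34.

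Without shscramble replicate 2 the edgeR test called 10 members higher and 16 lower, where it called 8.57% and 10.5% of all genes, 2172 genes in place of 781. The share of members in each direction was thus above that of all genes in this set of 5 libraries and below it with all 6. Shscramble replicate 2 had been seen to lie apart from the other controls in these same members. Its removal favours calls among them, so this difference in share is not evidence about the members. Lower were 12 large subunit members, among them RPL26 (log2 fold change -0.71), RPL14 (-0.74), RPL23 (-0.61), RPL22 (-0.52), RPL17 (-0.50) and RPL5 (-0.27), and 4 of the small subunit, RPS24 (-0.80), RPS15A (-0.51), RPS20 (-0.25) and RPS4X (-0.34). Higher were 4 large subunit members, among them RPL10 (0.58), RPL28 (0.26) and RPL36 (0.31), and 6 of the small subunit, among them RPS21 (0.75), RPS28 (0.66), RPS19 (0.53) and RPS27A (0.36). Of these, RPS20, RPS4X, RPL28 and RPL36 were named after their values were seen. On FPKM, limma called 1 member higher, RPS28, and 3 lower, RPS24, RPL26 and RPL14, in the same 5 libraries, where it called 0.691% and 0.592% of all genes. Leaving out any other single library gave 0 higher by counts, and 0 to 2 lower. The share of all genes called in those fits is not given here, so their counts are not a result about the members.

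**Figure D5:**
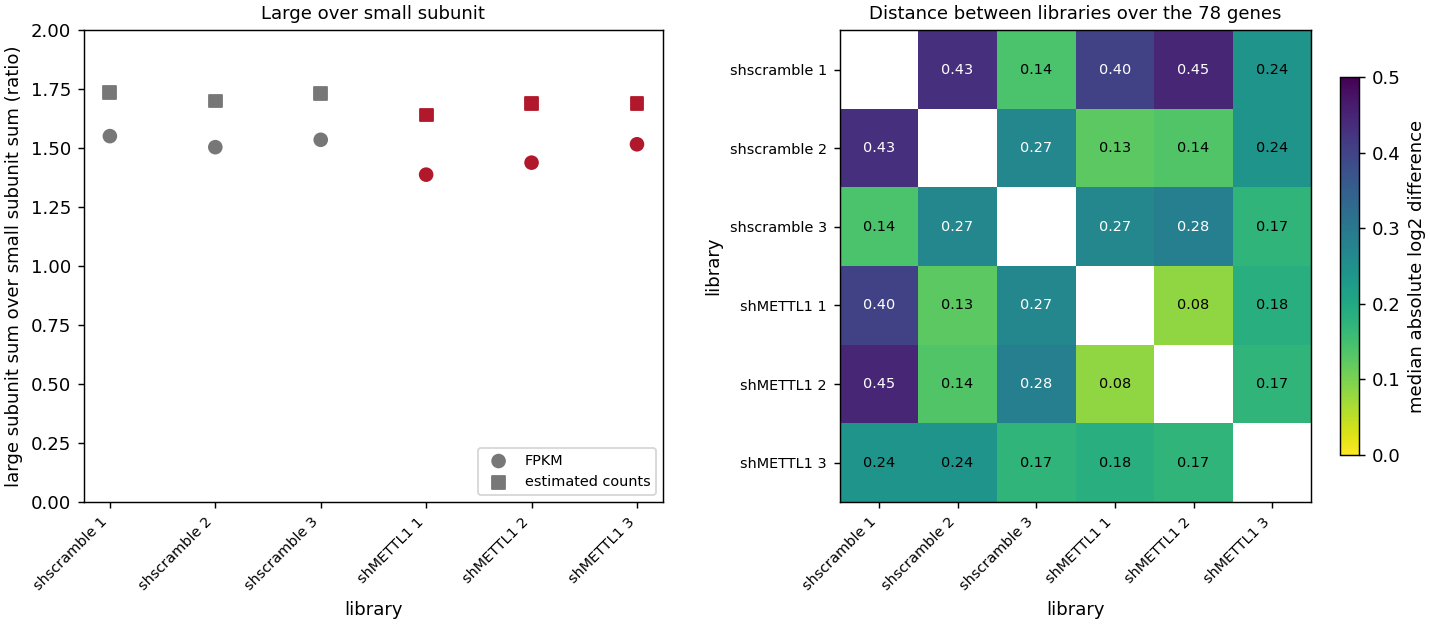
Left, the summed large subunit over the summed small subunit in each library, by FPKM (circles) and by estimated counts (squares), shscramble in grey and shMETTL1 in red; the ratios run from 1.39 to 1.74. Right, the median absolute log2 difference in FPKM over the 78 members between each pair of libraries, which is 0.43 between shscramble replicates 1 and 2 and 0.13 between shscramble replicate 2 and shMETTL1 replicate 1.

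Base composition moved with these differences. Of the members with a transcript GC content at or above the members' median of 50.6%, 29 had a higher and 10 a lower FPKM in shMETTL1, whereas below it 19 were higher and 20 lower. Without shscramble replicate 2, edgeR called 8 of the GC-rich members higher and 2 lower, and 2 of the others higher and 14 lower. Of the other genes tested, the same fit called 13.2% higher and 3.92% lower at or above this GC content, and 4.8% higher and 16.3% lower below it. The genes outside the list divided in the same way at this GC content, with median log2 fold changes by FPKM of 0.10 at or above it and -0.04 below it. Across members the Spearman correlation of GC content with the log2 fold change by FPKM was 0.20 (78 genes of the same libraries), and the part of base composition in the result was not tested. The 28 members with a small nucleolar RNA gene within them had a median log2 fold change by FPKM of 0.03 and the other 50 one of 0.10.

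RACK1 and the paralogues of members were read in the same way. RACK1, a signalling scaffold on the small subunit, had a log2 fold change by FPKM of 0.19 and passed neither test. RPL22L1, the paralogue of RPL22, stood at 1848, 997 and 1706 FPKM in shscramble and at 1048, 927 and 1207 FPKM in shMETTL1, above RPL22 in every library and in the same order of high and low controls. RPL26L1 and RPL36AL had log2 fold changes of -0.57 and -0.45, like RPL26 and unlike RPS27L, at 0.59.

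Of the 8 paralogues 6 were tested and none passed by limma or edgeR. Paralogues share sequence with their members, and how reads were divided between them is not known here. The row RPS10-NUDT3, a readthrough gene that overlaps RPS10, was listed at up to 21.2 FPKM, so RPS10 is uncertain to that extent. That extent differed between the groups, at 21.2, 14.2 and 6.30 FPKM in shscramble and 1.26, 5.8e-07 and 4.13 FPKM in shMETTL1. The row fell by edgeR (log2 fold change -2.91, adjusted p = 0.0258) but not by limma (adjusted p = 0.133) or DESeq2 (adjusted p = 0.132).

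Of 16 other genes known for a TOP motif, mostly elongation and initiation factors, 13 had a negative log2 fold change by FPKM, with a median of -0.15, where 47.5% of all genes had a negative one. By edgeR 2 of the 16 fell, where 4.05% of all genes did, EIF3H, a subunit of initiation factor eIF3 (-0.45, adjusted p = 0.022 by edgeR), and HNRNPA1, a splicing regulator (-0.38, adjusted p = 0.0456 by edgeR). Both calls were lost when any library other than shscramble replicate 2 was left out, with an adjusted p of up to 0.106 for EIF3H and 0.229 for HNRNPA1. None passed by limma. EEF1A1 and EEF2, which carry elongation, had log2 fold changes of 0.12 and -0.39 by FPKM and did not pass.

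Among 10 regulators of ribosomal protein synthesis or of its surveillance, 0 fell by edgeR, where 4.05% of all genes did. MDM2 alone rose, where 2.89% of all genes did. It stood at 147, 107 and 153 FPKM in shscramble and at 160, 181 and 180 FPKM in shMETTL1 (log2 fold change 0.49 by counts, adjusted p = 0.00844 by edgeR, and 0.37 by FPKM, adjusted p = 0.35 by limma). The call by counts was lost without shscramble replicate 3 or shMETTL1 replicate 1 or 2, with an adjusted p of up to 0.0594. LARP1, MTOR, RPTOR and MYC passed neither test with all 6 libraries. RPTOR passed by edgeR without shscramble replicate 2 (adjusted p = 0.00021) and with the replicate block (adjusted p = 0.0239). Without shscramble replicate 2, edgeR called 3 of the 10 higher and 0 lower, where it called 8.57% and 10.5% of all genes. Of 8 dedicated chaperones of single ribosomal proteins none passed; HEATR3, the importer of RPL5, had the highest log2 fold change of them by FPKM, 0.60 (adjusted p = 0.306 by limma).

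Of 77 mitochondrial ribosomal protein genes tested, 0 were called by limma and 0 by edgeR in either direction, and the median log2 fold change by FPKM was 0.05. By edgeR 2.89% of all genes rose and 4.05% fell. Without shscramble replicate 2, edgeR called 2 of the 77 higher and 4 lower, where it called 8.57% and 10.5% of all genes.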

How the data were processed

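LNCaP-AI cells were sequenced as 3 shMETTL1 and 3 shscramble libraries, grouped by the titles in the labels. The build (hg19) and the tools (HISAT2 2.0.4, cutadapt 1.9.3, Cuffdiff and Cufflinks) are those in the submitters' notes, without their roles. The authors deposited for each library 1 FPKM value and 1 estimated count per gene. Most estimated counts as deposited are not whole, and their near-equal totals leave the true depth unknown, so no counting interval was computed. They were rounded for the count tests.

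FPKM were tested with limma 3.58.1 (trend, robust) on log2(FPKM + 0.5), for genes of mean FPKM of at least 0.5. Fold changes on this scale understate those of low genes. Estimated counts were tested with edgeR 4.0.16 (TMM, filterByExpr, robust quasi-likelihood) in R 4.3.3, with DESeq2 1.42.0 as an alternative. Adjusted p are Benjamini-Hochberg values over all genes tested, and genes under 0.05 were called. Scripts were tested on simulated data. The members and lists were chosen with earlier results of these data known. Named genes were those called, the 4 highest and 4 lowest fold changes and levels per subunit, the 5 whose columns differed most, and 17 chosen for their roles. The results of some genes are not reported here.

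Transcript length and GC content are medians over GENCODE v29 protein-coding transcripts (GRCh38), with a GC content for 97.1% of genes tested. Transcript starts came from RefSeq (GRCh38.p14) by symbol.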

Additional observations from a re-analysis of the deposited data

How the results depend on the processing

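On FPKM, 0 members were called in either direction under every scaling, filter, pseudocount and the replicate block, and leaving out single libraries gave 0 to 1 higher and 0 to 3 lower. By counts, leaving out single libraries gave 0 to 10 higher and 0 to 16 lower, DESeq2 6 lower, no filter on low counts 6 lower, and the replicate block 2 higher and 7 lower. Of these alternatives, only DESeq2 and the fit without shscramble replicate 2 have the share of all genes given above. The counts of the others cannot be set against a background here. The block fits only a shared number: deviations of same-numbered libraries correlated at 0.00, 0.05 and -0.02. The cause of these shifts was not tested, and 3 libraries per group limit the precision. METTL1 stayed between -1.09 and -0.80 (log2) over libraries left out. The small subunit median by FPKM went from 0.08 to 0.19 without shscramble replicate 2. No setting moved a subunit median by more than the SD of the libraries' own medians within a group (0.143 and 0.152 by FPKM). Leaving out 1 library shifts a median by only a part of that SD, so this comparison could hardly fail and shows no stability.

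Of 850 values of named members under alternatives, 796 kept direction and side of the threshold, 26 passed it, 14 no longer passed it and 14 changed sign. Only RPL11, RPL38 and RPL14 by counts passed in the main fit, so all 14 losses were theirs. The other values had no call to lose, and the 796 are therefore no measure of how stable the calls were. RPS6 by FPKM was at 0.011 when scaled to other genes. With single libraries left out, values that changed sign ranged from -0.119 to 0.112 for RPS6 and -0.013 to 0.15 for RPL3 by FPKM, and by counts from -0.519 to 0.0074 for RPL22, -0.057 to 0.048 for RPL3, -0.126 to 0.021 for RPL31, -0.042 to 0.10 for RPL4, -0.0050 to 0.181 for RPS2, -0.055 to 0.158 for RPS3 and -0.138 to 0.012 for RPS6.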
